A study of Rattus norvegicus with 32 samples.

Results

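Protein quality control genes, comprising heat shock proteins and their cochaperones, proteasome activators, enzymes that attach or remove ubiquitin, and the autophagy receptor Sqstm1, were examined in the hippocampus of Gfap+/R237H rats. The members were the genes whose symbol begins as one of these families does (Hsp, Dnaj, Cryab, Bag, Psm, Uba, Ube, Usp, Fbx, Rnf or Sqstm1) and stands in at least 1 of the study's 4 lists of differentially expressed genes, leaving out the immunoproteasome subunits Psmb8 and Psmb9. There were 35 members among 23822 gene identifiers measured. Of the 35, 11 stood in all 4 lists, 6 in 3, 5 in 2 and 13 in 1. Only 13.8% of the identifiers had a symbol, so most of these families could not be named: 401 rat protein-coding symbols in RefSeq meet the pattern, and no listed HSP90, chaperonin, core proteasome, 19S cap or cullin gene was among those that could.

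The lists hold genes with small false discovery rates (FDR), so a member had to differ between the genotypes in at least 1 comparison, and that difference is a description. A member was therefore tested in a comparison only if it also stood in the list of another comparison, which came from other rats. On this rule 33 members were tested in P56 males, 34 in P56 females, 32 in P21 males and 28 in P21 females. The lists were not cut at 1 value of the FDR computed here. Among members listed for P56 males the largest FDR was 0.00327 (Psme4), and among those not listed the smallest was 0.000661 (Fbxo5). These values were 0.0013 (Rnf112) and 0.00107 (Ube2c) for P56 females, 0.0105 (Dnajc25) and 0.00381 (Fbxo5) for P21 males, and 0.0354 (Rnf152) and 0.038 (Usp22) for P21 females.

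Chaperones hold unfolded or aggregating proteins in a soluble state and help them refold. Small heat shock proteins act without ATP as the first holders, HSP70 chaperones work in cycles of ATP driven by J-domain proteins, and BAG proteins release the substrate; BAG3 passes it, together with HSPB8, to autophagy. Proteins that cannot be refolded are tagged with ubiquitin by E1, E2 and E3 enzymes and degraded by the proteasome or, through receptors such as Sqstm1, by autophagy. In Alexander disease, mutant glial fibrillary acidic protein (GFAP) accumulates in astrocytes in Rosenthal fibers, inclusions that also hold the small heat shock proteins encoded by Cryab and Hspb1.

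Hippocampal RNA was sequenced from 32 rats of the Crl:CD(SD) strain, of both sexes, at postnatal day 21 (P21) and 56 (P56). R237H rats carried 1 mutant and 1 normal Gfap allele and their wild-type (WT) littermates were Gfap+/+, with no treatment in either. Each group held 4 rats, except that the labels gave 3 WT and 5 R237H females at P21. The mutation was in the germ line, so every cell that expresses Gfap carried it, and whole hippocampus was sampled: fewer cells of a type and less RNA per cell cannot be told apart in any result. Gfap itself was 290.4 to 584 TPM (the transcript level scaled to the size of the library and the length of the gene) in WT rats and 1832 to 5257 TPM in R237H rats, and no R237H rat overlapped a WT rat.

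The libraries held 21580397 to 55544871 counts, with a median of 46157271, and 2 were under 30000000. Markers of choroid plexus, which lies beside the hippocampus, were high in single dissections: Ttr was over 500 TPM in 5 rats (P56 male WT replicate 2 and R237H replicate 4, P56 female R237H replicate 4, P21 male WT replicate 1 and P21 female WT replicate 3) and at most 122.74 TPM in the others. P56 male WT replicate 3 stood apart from the other WT males for several members (Rnf112 was 86.9 TPM in it and 183 to 187 TPM in the others), and without it 21 members were higher and 6 lower in P56 males, in place of the 21 and 5 given below. All 11 listed microglial markers were measured, and 10 of them were higher in R237H rats in each comparison; their summed level was 219 to 403 TPM in P56 WT males and 2146 to 3423 TPM in P56 R237H males, with none at 0. Of the neuronal markers tested, 2 of 2 were lower in R237H males and 3 of 4 in R237H females at P56, and 0 of 4 in either sex at P21. Of 7 astrocyte markers, 3 were lower and 1, Gfap itself, was higher in R237H rats of each sex at P56. At P21, 4 were lower and 2 higher in males (Gfap and Aqp4), and 3 were lower and 1 higher in females (Gfap). Of 4 blood markers, all were lower in R237H rats of each sex at P56 and none was called at P21. The part of these cell types in the results below was not tested. The markers had a symbol only through the lists. Of all genes with a symbol found through another list, 34.4% to 59.9% were higher and 3.24% to 20.9% lower, depending on the comparison.

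The heat shock element is the DNA motif through which heat shock factors raise chaperone genes. The letters GAANNTTC were searched on both strands in the 250 bases before the start site of the 11 members in all 4 lists and of Uba7 and Usp18, of which 11 had an entry in RefSeq (build GRCr8). Cryab and Usp18 had no entry, so neither was searched for this or the other motifs below. The letters GAANNTTC were found in 4 of the 11, Bag3, Hspa9, Hspb1 and Hspb8, and in 7.23% of 33469 promoters of the same length. The windows of 60 bases that hold them are shown for these 4 genes. Hspb1 and Hspb8 among them had the largest log2 fold changes of all members. Bag3 had 1.44 to 1.96 and Hspa9 had 0.44 to 0.99. Usp53, in which no match was found, had 2.16 to 2.40. A relation of the motif to the fold changes was not tested. Capitals mark the motif.
Hspb1: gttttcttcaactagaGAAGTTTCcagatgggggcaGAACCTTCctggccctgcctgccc
Hspb8: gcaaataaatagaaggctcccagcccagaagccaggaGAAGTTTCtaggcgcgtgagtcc
Bag3: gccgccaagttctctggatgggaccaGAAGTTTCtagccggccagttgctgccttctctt
Hspa9: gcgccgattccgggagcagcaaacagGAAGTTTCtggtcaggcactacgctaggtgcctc
The Hspb1 window lies at chr12:26432387-26432446, minus strand, and held 2 matches. The Hspb8 window lies at chr12:45837248-45837307, plus strand, and ends at the last base before the start site. The Bag3 window lies at chr1:192533302-192533361, plus strand, and the Hspa9 window at chr18:26828449-26828508, minus strand. The antioxidant response element TGACNNNGC was found in 3 of the 11 (Bag3, Rnf213 and Uba7) and in 10.1% of all promoters. The core of the interferon-stimulated response element, GAAA repeated after 2 bases of any kind, was found in 0 of the 11 and in 3.41% of all promoters. A match is a description of the letters and was not tied to binding of a factor.

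The question of each comparison was which transcripts differed between R237H rats and WT littermates of the same sex and age, tested with edgeR's quasi-likelihood F-test at an FDR under 0.01 over all genes. R237H rats of both sexes and ages had more transcript of Bag3 and the 3 small heat shock proteins with a symbol, of 10 listed. They also had more of the autophagy receptor Sqstm1, of the proteasome activator subunit Psme1, and of the ISG15 enzymes Uba7 and Ube2l6. Fewer members were lower, among them Dnajb13 and Rnf112 at P56. Fbxo32, Rnf213 and Fbxw10 differed more at P56 than at P21. At P56, 21 of the 33 members tested were higher and 5 lower in R237H males, and 20 of 34 were higher and 6 lower in R237H females. At P21, 18 of 32 were higher and 3 lower in males, and 15 of 28 were higher and 0 lower in females. All P21 males share 1 number in their sample titles, and the labels do not say what it means. Their p-values measure the spread among those rats only. Among all genes tested, 16.8% were higher and 11.1% lower in P56 males, 17% and 11.1% in P56 females, 12.4% and 4.82% in P21 males, and 7.06% and 0.753% in P21 females.

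Because members came from the lists, the fitting background was all genes with a symbol that were found through another list, the members among them. Of these, 59.5% were higher and 17% lower in P56 males, 59.9% and 20.9% in P56 females, 53.7% and 10.7% in P21 males, and 34.4% and 3.24% in P21 females. The shares of members were near these at P56 and in P21 males, where the number of members called is therefore no result about these families. In P21 females the share of members higher, 15 of 28, was above that of this background. This difference was not tested, and the count was 8 or 9 without 1 of 3 single rats. The median log2 fold change of the members tested was 0.95 in P56 males, 1.03 in P56 females, 0.59 in P21 males and 0.73 in P21 females, beside 1.01, 0.88, 0.49 and 0.53 for all genes found in the same way. All 35 members passed the filter on low counts in every comparison. By scaled counts, the genotypes did not overlap for 42% of all genes tested in P56 males and 40.9% in P56 females. These shares were 30% in P21 males and 21.5% in P21 females, and the lack of overlap of a member is to be read beside them.

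The scale bears on the members that were lower or not called at P56. It also bears on the age interactions, which were not run on TPM. On the TPM scale the median gene was shifted upward in R237H rats by 0.40 log2 units in P56 males and 0.29 in P56 females relative to the counts scaled by edgeR's trimmed mean (TMM), but by -0.003 and -0.068 at P21. With log2(TPM + 0.1) and limma, 22 members were higher and 0 lower in P56 males, and 23 higher and 1 lower in P56 females; no called member turned direction. Differences read from the TPM values below therefore lie above the fold changes at P56, which are from the TMM-scaled counts. P21 females had 3 WT rats, and the 15 members called higher there became 8 without WT replicate 1, 8 without WT replicate 2 and 9 without R237H replicate 3, and 12 without WT replicate 3, the rat with high Ttr. Without the 5 rats with high Ttr, 19 members were higher and 4 lower in P56 males, 18 and 3 in P56 females, and 18 and 2 in P21 males.

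**Figure D1:**
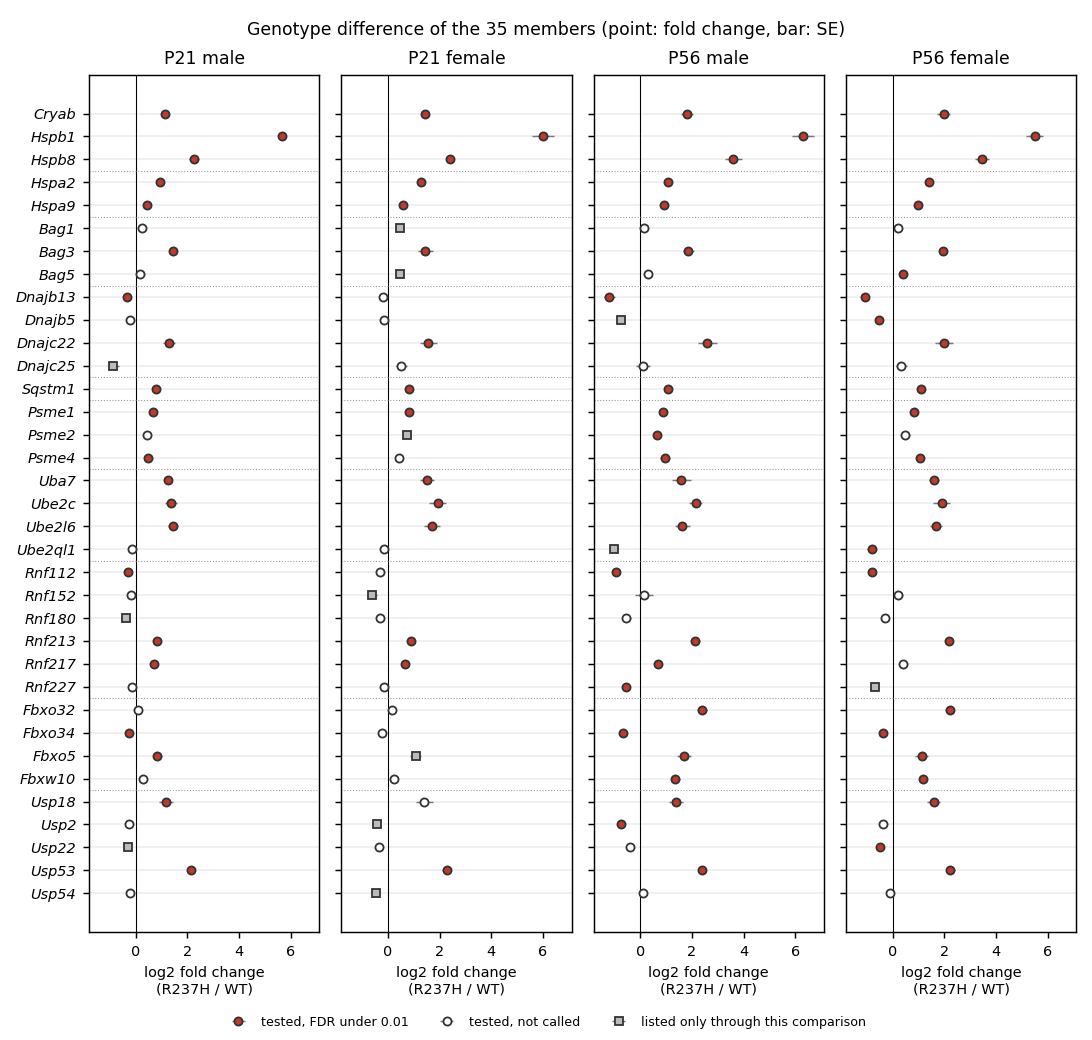
The log2 fold change of each of the 35 members (x axis, R237H over WT, with its standard error as a bar) in the 4 comparisons, grouped by family from small heat shock proteins at the top to ubiquitin-specific proteases at the bottom. Filled circles passed an FDR under 0.01, open circles did not, and grey squares are members listed through that comparison only, which were not tested; Hspb1 stands at 5.49 to 6.29 in every panel.

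Among the small heat shock proteins, Hspb1 and Hspb8 showed the largest log2 fold changes of all members in each of the 4 comparisons. Hspb1, a holder chaperone found in Rosenthal fibers, was near the lower end of the TPM scale in every WT group and rose by 45- to 78-fold. In P21 males it was 3, 2.35, 3.3 and 2.73 TPM in WT rats and 131, 153, 137 and 152 TPM in R237H rats. In P21 females it was 2.96, 4.12 and 1.72 TPM in WT rats and 129, 213, 233, 222 and 98.9 TPM in R237H rats. R237H rats of P21 were thus far above their WT littermates. In P56 males it was 3.16, 6.72, 1.4 and 2.9 TPM in WT rats and 327, 282, 221 and 576 TPM in R237H rats. In P56 females it was 8.8, 4.02, 7.5 and 6.43 TPM in WT rats and 179.7, 512, 303 and 532 TPM in R237H rats. The lowest R237H rat of the series, a P21 female at 98.9 TPM, was above the highest WT rat, a P56 female at 8.8 TPM. The log2 fold changes were 5.66 ± 0.095 (SE) in P21 males, 5.99 ± 0.42 in P21 females, 6.29 ± 0.42 in P56 males and 5.49 ± 0.34 in P56 females, with edgeR FDR from 1.2e-11 to 1.11e-05. The log2 difference was larger at P56 by 0.60 ± 0.41 in males and smaller by 0.49 ± 0.51 in females, neither called (edgeR FDR 0.316 and 0.626).

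Hspb8, the partner of BAG3 in chaperone-assisted autophagy, was 11.9, 8.12, 10.7 and 11 TPM in P21 WT males and 65.3, 55.7, 38 and 40.1 TPM in R237H males. At P56 it was 12.1, 21.1, 7.7 and 13.8 TPM in WT males and 211, 171, 119 and 346 TPM in R237H males. The R237H rats stood above every WT rat at both ages, and the older ones reached the higher levels. In females it was 11.7, 10.4 and 11.4 TPM in WT and 63.1, 44.5, 67.4, 66.8 and 44 TPM in R237H rats at P21, and 14.9, 12.2, 15.9 and 14.3 TPM in WT and 99.2, 201, 169 and 329 TPM in R237H rats at P56. Hspb8 differed by log2 fold changes of 2.26 in P21 males, 2.40 in P21 females, 3.60 in P56 males and 3.46 in P56 females, with edgeR FDR from 1.95e-06 to 2.34e-05. The growth of the difference with age was 1.31 ± 0.38 log2 units in males and 1.07 ± 0.29 in females, and it missed the threshold (edgeR FDR 0.0223 and 0.0351). The highest R237H value of Hspb8 and of Hspb1 at P56 belonged in each sex to replicate 4, a rat with high Ttr. Without the 5 rats with high Ttr, Hspb8 differed by 3.43 in P56 males and 3.16 in P56 females, and Hspb1 by 6.34 and 5.33.

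Cryab, which encodes alpha B-crystallin, a main component of Rosenthal fibers, already had 22 to 54.7 TPM in WT rats. In R237H rats it was 67.1, 59.6, 52.5 and 53.9 TPM in P21 males and 189, 144, 101 and 216 TPM in P56 males. In R237H females it was 61.7, 52.5, 72.5, 81.1 and 62.6 TPM at P21 and 126, 238, 128 and 235 TPM at P56. Every R237H rat was above every WT rat of its sex and age. Cryab had log2 fold changes of 1.12 in P21 males, 1.44 in P21 females, 1.81 in P56 males and 1.98 in P56 females, with edgeR FDR from 2.36e-05 to 0.00022, and the same calls were made without the rats with high Ttr. By the group medians of TPM, Cryab was the most abundant of these 3 small heat shock proteins in every WT group and Hspb1 in every R237H group.

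**Figure D2:**
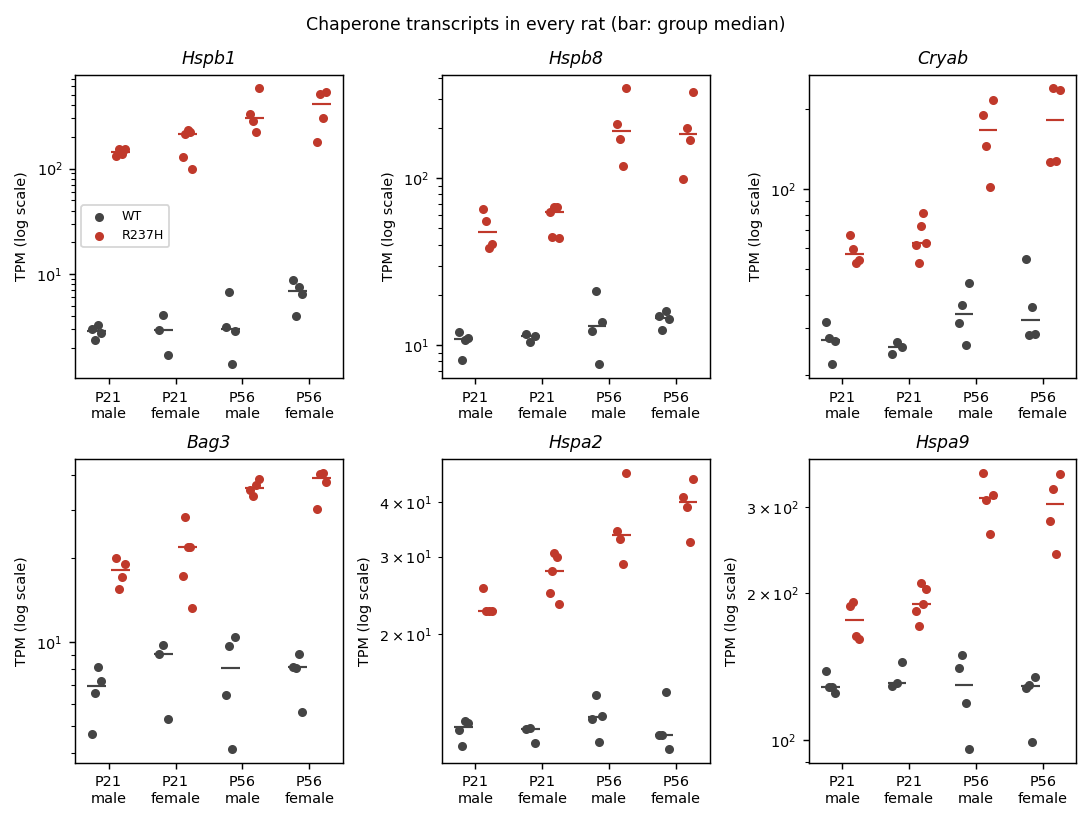
TPM (log axis) in each of the 32 rats for 6 chaperone and cochaperone genes, with WT rats in grey and R237H rats in red, by sex and age, and a bar at each group's median. R237H rats lie above the WT rats of their sex and age in all 6 panels, and the gap is widest for Hspb1, at 1.4 to 8.8 TPM in WT and 98.9 to 576 TPM in R237H rats. By scaled counts, the genotypes did not overlap for 21.5% to 42% of all genes, depending on the comparison.

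Among the HSP70 chaperones, Hspa2, a family member best known from the testis, was 10.9 to 14.7 TPM in the 15 WT rats and 22.5 to 46.5 TPM in the 17 R237H rats, with no overlap. Its log2 fold changes were 0.95 in P21 males, 1.27 in P21 females, 1.07 in P56 males and 1.39 in P56 females, with edgeR FDR from 1.76e-06 to 0.000411. Hspa9, the mitochondrial HSP70 called mortalin, was far more abundant, at 95.8 to 149.6 TPM in WT rats and 161 to 352 TPM in R237H rats. Its log2 fold changes were 0.44 in P21 males, 0.57 in P21 females, 0.91 in P56 males and 0.99 in P56 females, with edgeR FDR from 0.000222 to 0.00271. The Hspa9 difference was larger at P56 by 0.45 ± 0.16 in males and 0.43 ± 0.17 in females, which was not called (edgeR FDR 0.0537 and 0.149). In P21 females the Hspa9 call was lost without WT replicate 1, WT replicate 2 or R237H replicate 3 (FDR 0.01 to 0.023).

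Of 6 listed BAG cochaperones, 3 had a symbol. Bag3 was called in all 4 comparisons, and Bag5 in 1 and Bag1 in 0 of those tested. Bag3, which routes chaperone clients to autophagy, was 4.69, 6.58, 8.13 and 7.27 TPM in P21 WT males and 20.1, 15.6, 17.1 and 19.2 TPM in R237H males. The levels at P56 were 6.48, 9.71, 4.13 and 10.5 TPM in WT males and 35.1, 33.6, 36.7 and 38.5 TPM in R237H males. The R237H males of both ages were above every WT male. In females it was 9.07, 9.75 and 5.27 TPM in WT and 17.3, 28.3, 21.9, 22 and 13.3 TPM in R237H rats at P21, and 8.17, 8.08, 9.08 and 5.59 TPM and 30.2, 40.3, 40.5 and 37.8 TPM at P56. In log2 units, R237H rats exceeded WT rats by 1.44 in P21 males, 1.44 in P21 females, 1.86 in P56 males and 1.96 in P56 females, with edgeR FDR of 1.32e-05, 0.00751, 8.09e-05 and 4.19e-06. The call in P21 females was lost without any 1 of the WT rats, R237H replicate 3 or R237H replicate 4 (FDR 0.0179 to 0.0283), one of them the WT rat with high Ttr. Bag5, which also acts on HSP70, was called in 1 of the 3 comparisons tested, P56 females (0.39 ± 0.087, edgeR FDR 0.00463; 0.28 in P56 males and 0.18 in P21 males), a call that was lost without WT replicate 1, 2 or 4 or R237H replicate 4 (FDR 0.0134 to 0.0154). Bag1, an exchange factor of HSP70, was called in 0 of the 3 comparisons in which it was tested, with log2 fold changes of 0.24 in P21 males, 0.15 in P56 males and 0.22 in P56 females. On the TPM scale, which was shifted upward at P56, Bag1 was 38.2 to 53.34 in WT and 58.44 to 75.21 in R237H rats. Bag1 and Bag5 were listed through P21 females, where they differed by 0.47 and 0.47.

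The 4 members that are J-domain proteins, which start the ATP cycle of HSP70, went in different directions. Dnajc22 was the scarcest member, with a median of 0.895 TPM over all rats. It was 0.18 to 0.72 TPM in WT and 0.87 to 2.73 TPM in R237H rats. Its log2 fold changes were 1.29 in P21 males, 1.56 in P21 females, 2.59 in P56 males and 2.001 in P56 females, with edgeR FDR from 0.000436 to 0.00999; the call in P21 females was lost without any 1 of the 8 rats (FDR 0.0111 to 0.0452). Dnajb13, a part of the motile cilium's radial spoke, was lower in R237H rats: it was 11.6, 10.2, 11.7 and 11.8 TPM in P56 WT females and 5.48, 7.08, 8.03 and 5.83 TPM in R237H females. Its log2 fold changes were -0.32 in P21 males, -0.18 in P21 females, -1.19 in P56 males and -1.08 in P56 females, called in P56 males, P56 females and P21 males (edgeR FDR 0.00131, 8.36e-05 and 0.00928), and in P21 males the call was lost without any 1 of the 8 rats (FDR 0.0117 to 0.0336). Dnajb5 was lower in P56 females (-0.54 ± 0.12, edgeR FDR 0.00548), a call lost without any 1 of WT replicates 1 to 3 or R237H replicates 2 to 4 (FDR 0.0115 to 0.0219), and it was listed through P56 males, where it differed by -0.74. Dnajc25, a J-domain protein of the endoplasmic reticulum, was not called in the 3 comparisons tested and was listed through P21 males, where it differed by -0.87.

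Sqstm1, which encodes the autophagy receptor p62, a protein that binds ubiquitinated cargo, was the most abundant member, with a median of 395 TPM over all rats. It was 263, 277, 279.6 and 281 TPM in P21 WT males and 499, 473, 442 and 479 TPM in R237H males. At P56 it was 305, 341, 175 and 325 TPM in WT males and 844, 741, 734 and 806 TPM in R237H males. Values in females were of the same order, with 235 to 339 TPM in WT and 363 to 885 TPM in R237H rats over both ages. The differences amounted to log2 fold changes of 0.78 in P21 males, 0.81 in P21 females, 1.09 in P56 males and 1.08 in P56 females, with edgeR FDR from 5.63e-07 to 0.000793. Of the 19 genes listed with the autophagy receptors and LC3 family, 2 had a symbol, Sqstm1 itself and Lamp2, which encodes a lysosomal membrane protein. No other receptor and no LC3 gene could thus be named. Both genes were higher in all 4 comparisons (Lamp2 by 0.50 and 0.57 at P21 and by 1.30 and 1.195 at P56, in males and females). Of all genes with a symbol found through another list, 34.4% to 59.9% were higher, depending on the comparison.

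Nfe2l2, a factor known to act on Sqstm1 and on antioxidant genes, was 1 of 3 of the 10 listed stress factors that had a symbol. It was higher in all 4 comparisons, by 0.92 and 1.004 at P21 and 1.70 and 1.55 at P56 in males and females. The antioxidant response element was not found in the Sqstm1 promoter searched above, and a link between Nfe2l2 and Sqstm1 was not tested. Atf6, a sensor of unfolded protein in the endoplasmic reticulum, was higher by 0.79 in P56 males and 0.68 in P56 females (edgeR FDR 5.8e-05 and 0.000235), by 0.24 in P21 males (FDR 0.00288), and was not called in P21 females (0.15, FDR 0.575). The third, Nfe2l1, a factor that raises proteasome genes, was called in P56 females (0.29, edgeR FDR 0.00982) and not in P56 males (0.30, FDR 0.0152) or P21 females (0.19, FDR 0.171); it differed by 0.27 in P21 males, through which it was listed.

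The proteasome members were activators, which cap its core. Psme1, the alpha subunit of the interferon-inducible activator PA28, was 46.5, 40, 40.1 and 36.7 TPM in P21 WT males and 64.2, 78.8, 57.3 and 60.5 TPM in R237H males. The levels at P56 were 54.8, 64.5, 40.4 and 52.4 TPM in WT males and 129.6, 127, 121 and 132 TPM in R237H males. The R237H rats did not overlap the WT rats in any sex or age, females being at 38.6 to 58.1 TPM in WT and 55.1 to 122 TPM in R237H rats, where the lowest R237H value is from P21 and the highest WT value from P56. Log2 fold changes for Psme1 were 0.68 in P21 males, 0.80 in P21 females, 0.87 in P56 males and 0.83 in P56 females, with edgeR FDR from 3.14e-05 to 0.000753.

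Psme2, the beta subunit of the same activator, was called in 1 of the 3 comparisons tested, P56 males (0.65 ± 0.16, edgeR FDR 0.00858), a call that was lost without any 1 of the R237H rats or WT replicate 1 or 2 (FDR 0.0126 to 0.026). It was 0.49 in P56 females and 0.42 in P21 males (FDR 0.0434 and 0.0209), and 0.75 in P21 females, through which it was listed. Without R237H replicate 1 in P56 females or WT replicate 1 in P21 males, it passed (FDR 0.0056 and 0.00726). Psme4, the nuclear activator PA200, was higher in P56 males, P56 females and P21 males by 0.95, 1.08 and 0.50 (edgeR FDR 0.00327, 0.000116 and 0.00105) and by 0.42 in P21 females (FDR 0.101); the P56 male call was lost without R237H replicate 2 or 4 (FDR 0.0122 and 0.0119). The immunoproteasome subunits Psmb8 and Psmb9, left out of the members by their rule, were higher by 1.78 to 2.29 and 1.60 to 2.05.

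ISG15 is a ubiquitin-like protein that interferon induces and that its own enzymes attach to other proteins. Uba7 is its E1, Ube2l6 its E2, and Usp18 removes it. Uba7 was 0.91, 1.15, 1.01 and 1 TPM in P21 WT males and 2.46, 2.51, 2.23 and 2.46 TPM in R237H males. At P56 it was 1.46, 2.68, 0.39 and 1.69 TPM in WT males and 5.39, 6.16, 6.77 and 4.62 TPM in R237H males. The spread among the P56 WT males was wide, and all R237H males stood above it. Ube2l6 was 1.59 to 4.11 TPM in P21 WT rats and 5.32 to 11.3 TPM in P21 R237H rats, and 1.52 to 5.65 and 12.6 to 18.9 TPM at P56. Usp18 was 0.46 to 1.07 TPM in P21 WT rats and 1 to 2.66 TPM in P21 R237H rats, and 1.02 to 3.63 and 5.28 to 11.6 TPM at P56. Usp18 was the only one of the 3 in which a P21 R237H male, at 1 TPM, overlapped a WT male, at 1.07 TPM.

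The log2 fold changes of Uba7 were 1.26 in P21 males, 1.51 in P21 females, 1.59 in P56 males and 1.61 in P56 females, all called (edgeR FDR 8.13e-06 to 0.00609). Those of Ube2l6 were 1.44 in P21 males, 1.72 in P21 females, 1.62 in P56 males and 1.69 in P56 females, all called (edgeR FDR 0.000207 to 0.00398). Those of Usp18 were 1.18 in P21 males, 1.40 in P21 females, 1.38 in P56 males and 1.58 in P56 females, called in P21 males and at P56 (edgeR FDR 0.00697, 0.00238 and 0.000792) and not in P21 females (FDR 0.0167), where it passed without R237H replicate 1 (FDR 0.00707). The Uba7 call was lost in P56 males without WT replicate 1 or any 1 of the R237H rats (FDR 0.0115 to 0.0205), and in P21 females without any 1 of the WT rats or R237H replicate 3 (FDR 0.011 to 0.0261). The Ube2l6 call in P21 females was lost without WT replicate 1 or 2 or R237H replicate 3 or 4 (FDR 0.0106 to 0.0268), and the Usp18 call in P21 males without WT replicate 1, 3 or 4 or R237H replicate 1, 2 or 4 (FDR 0.0138 to 0.0234).

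Of 6 listed genes of ISG15 conjugation, 5 had a symbol: these 3, Isg15 itself and the E3 Trim25. All 5 were higher at P56 in each sex, 4 of 5 in P21 males and 3 of 5 in P21 females, with a median log2 fold change of 1.59 in P56 males, 1.69 in P56 females, 1.26 in P21 males and 1.51 in P21 females. Isg15 was 1.24, 6.13, 0.96 and 0.78 TPM in P56 WT males and 18.6, 15.2, 12.2 and 35.6 TPM in R237H males. Its log2 fold changes were 1.78 in P21 males, 2.78 in P21 females, 2.82 in P56 males and 3.34 in P56 females, the P21 male one just missing the threshold (edgeR FDR 0.0133). The WT male with the most Isg15 at P56, replicate 2 at 6.13 TPM, was the one with the highest Ttr. Of 13 interferon response genes with a symbol, 10 of 11 tested were higher in P56 males, 11 of 13 in P56 females, 10 of 12 in P21 males and 6 of 13 in P21 females. Isg15 counts in this list and in that of ISG15 conjugation. Of all genes with a symbol found through another list, 59.5% and 59.9% were higher in P56 males and females, and 53.7% and 34.4% at P21. The summed microglial markers rose in the same comparisons, to 935 to 1136 TPM in P21 R237H males from 342 to 359 TPM in WT males, and their part was not tested.

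**Figure D3:**
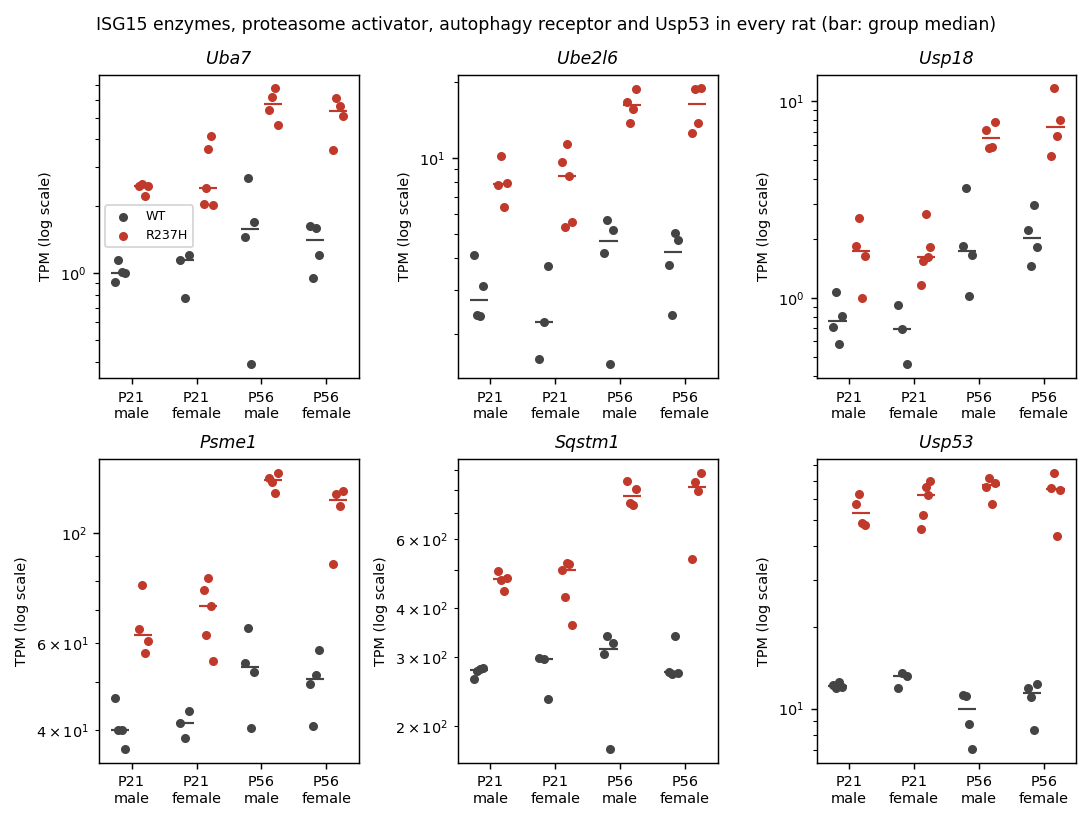
TPM (log axis) in each of the 32 rats for the ISG15 enzymes Uba7, Ube2l6 and Usp18, the proteasome activator subunit Psme1, the autophagy receptor Sqstm1 and the protease Usp53, with WT rats in grey, R237H rats in red and bars at the group medians. R237H rats lie above WT rats of their sex and age except for Usp18 in P21 males, where 1 R237H rat at 1 TPM lies under the highest WT rat at 1.07 TPM. By scaled counts, the genotypes did not overlap for 21.5% to 42% of all genes, depending on the comparison.

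A pair of members act in dividing cells. Ube2c is the E2 of the anaphase-promoting complex and Fbxo5 inhibits that complex. Ube2c was 0.58 to 3.06 TPM in WT rats and 3.59 to 9.3 TPM in R237H rats. Its log2 fold changes were 1.36 in P21 males, 1.92 in P21 females, 2.14 in P56 males and 1.89 in P56 females, all called (edgeR FDR 0.000175 to 0.00297); the call in P21 females was lost without WT replicate 1 (FDR 0.0202). Fbxo5 was higher by 1.68 in P56 males, 1.13 in P56 females and 0.83 in P21 males (edgeR FDR 0.000661, 0.00583 and 0.00381), and by 1.07 in P21 females, through which it was listed. The P56 female call was lost without WT replicate 2, 3 or 4 or R237H replicate 2, 3 or 4 (FDR 0.0112 to 0.0208), and the P21 male call without R237H replicate 1 or 3 or WT replicate 4 (FDR 0.0113 to 0.014). All 9 listed markers of dividing cells were measured, and 8 of 9 were higher in P56 males, 8 of 9 in P56 females, 7 of 9 in P21 males and 6 of 6 tested in P21 females. Their summed level was 8.72 to 11.7 TPM in P56 WT males and 31.2 to 40.9 TPM in P56 R237H males, and its part in the 2 members was not tested. Of all genes with a symbol found through another list, 59.5% and 59.9% were higher in P56 males and females, and 53.7% and 34.4% at P21.

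The remaining ubiquitin ligases included the members whose difference depended on age. Fbxo32 encodes atrogin-1, the ubiquitin ligase subunit that muscle induces in atrophy. It was 4.62, 4.53, 4.1 and 4.72 TPM in P21 WT males and 5.1, 4.58, 4.11 and 5.23 TPM in R237H males. In P21 females it was 3.61, 4.62 and 3.94 TPM in WT and 3.6, 3.75, 4.58, 4.39 and 5.17 TPM in R237H rats. The genotypes overlapped at P21 in both sexes. In P56 males it was 3.01, 3.67, 2.67 and 2.16 TPM in WT and 19, 20, 14.7 and 25.5 TPM in R237H rats, and in P56 females 3.15, 3.69, 2.95 and 2.79 TPM and 14.9, 21.8, 12.4 and 22.4 TPM. At P56 the lowest R237H rat was above the highest WT rat. The log2 fold changes were 0.089 ± 0.097 in P21 males and 0.15 ± 0.17 in P21 females (edgeR FDR 0.534 and 0.647), and 2.39 ± 0.20 in P56 males and 2.20 ± 0.19 in P56 females (edgeR FDR 1.32e-05 and 9.14e-06).

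The change of the genotype difference between the ages was tested with an age by genotype interaction in edgeR, within a sex and only for members listed through the other sex. Of 29 members tested in males, 4 were called, and of 27 in females, 4 were called, beside 10.1% and 2.15% of all genes. The share among genes found through the lists was not computed, so these counts are no result about the families. The Fbxo32 difference was larger at P56 by 2.28 ± 0.22 log2 units in males and 2.05 ± 0.25 in females (edgeR FDR 8.05e-06 and 0.000255). Rnf213, a giant ubiquitin ligase with ATPase domains, was 1.15 to 1.79 TPM in P21 WT and 2.03 to 3.11 TPM in P21 R237H rats. The levels at P56 were 1.4, 2.2, 0.91 and 1.03 TPM in WT males, 7.97, 7.47, 7.59 and 7.83 TPM in R237H males, 1.51, 1.2, 1.23 and 1.61 TPM in WT females and 6.35, 9.55, 6.17 and 9.09 TPM in R237H females. R237H rats were thus above WT rats at both ages and further above them at P56. Rnf213 had log2 fold changes of 0.81 in P21 males, 0.90 in P21 females, 2.13 in P56 males and 2.19 in P56 females, all called (edgeR FDR 2.23e-06 to 0.00178), though in P21 females not without WT replicate 2 (FDR 0.0135). The difference was larger at P56 by 1.31 ± 0.18 in males and 1.30 ± 0.21 in females (edgeR FDR 0.000197 and 0.00171), and the female interaction was not called without the rats with high Ttr (1.24, FDR 0.0145).

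Fbxw10, an F-box protein with WD repeats, was 3.34, 2.98, 3.71 and 3.45 TPM in P21 WT males and 4.53, 3.58, 3.93 and 4.12 TPM in R237H males. At P56 it was 1.87, 1.31, 1.35 and 1.52 TPM in WT males and 5.55, 4.8, 5.65 and 5.43 TPM in R237H males. In TPM, WT males at P56 were all below WT males at P21. R237H males at P56 were all above R237H males at P21 on this scale, which was shifted upward in R237H rats at P56. By mean scaled counts, WT males were at 6.47 (SD 0.26) at P21 and 3.43 (SD 0.68) at P56. R237H males were at 7.86 (SD 0.76) and 8.76 (SD 0.73), a smaller rise than in TPM. The change with age within a genotype was not tested. The log2 fold changes were 0.28 in P21 males, 0.24 in P21 females, 1.35 in P56 males and 1.16 in P56 females, called at P56 (edgeR FDR 0.000205 and 3.93e-05) and not at P21 (FDR 0.0434 and 0.238), where it passed in males without R237H replicate 2 (FDR 0.00942). The difference was larger at P56 by 1.05 ± 0.19 in males and 0.93 ± 0.14 in females (edgeR FDR 0.00133 and 0.00115). Dnajb13 differed more, and downward, at P56 in females by -0.89 ± 0.17 (edgeR FDR 0.00609), and in males by -0.90 ± 0.23 (FDR 0.0122, not called). In mean TPM, a scale on which the interaction was not tested, WT and R237H females were at 11.3 and 6.6 at P56. They were at 9.0 and 7.7 at P21. The Dnajb13 interaction in females was lost without any 1 of 12 of the 16 rats (FDR 0.0111 to 0.0208) and without those with high Ttr (FDR 0.0381), so that 2 members, Fbxo32 and Fbxw10, were then called. Fbxo32 and Fbxw10 were called in both sexes with each rat left out in turn.

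Rnf112, a RING finger GTPase enriched in brain, was lower in P56 males, P56 females and P21 males by log2 fold changes of -0.93, -0.81 and -0.30 (edgeR FDR 0.000636, 0.0013 and 0.00192), and -0.29 in P21 females (FDR 0.2). Its age interaction was -0.65 ± 0.16 in males (edgeR FDR 0.00963), which was lost with RLE size factors (FDR 0.01) or all 32 rats in 1 model (FDR 0.0142), and without any 1 rat other than P56 WT replicate 3 (FDR 0.0108 to 0.0262), and was -0.51 ± 0.20 in females (FDR 0.142). The genotype differences of females and males were also compared at each age, and 0 of 24 members at P21 and 0 of 29 at P56 were called, as were 0% of all genes at each age. Without P56 WT replicate 3, 7 male interactions were called in place of 4. For the sex comparison there were 1 and 2 members at an unadjusted p under 0.05, and the likelihood-ratio test of edgeR called 0 members at each age.

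**Figure D4:**
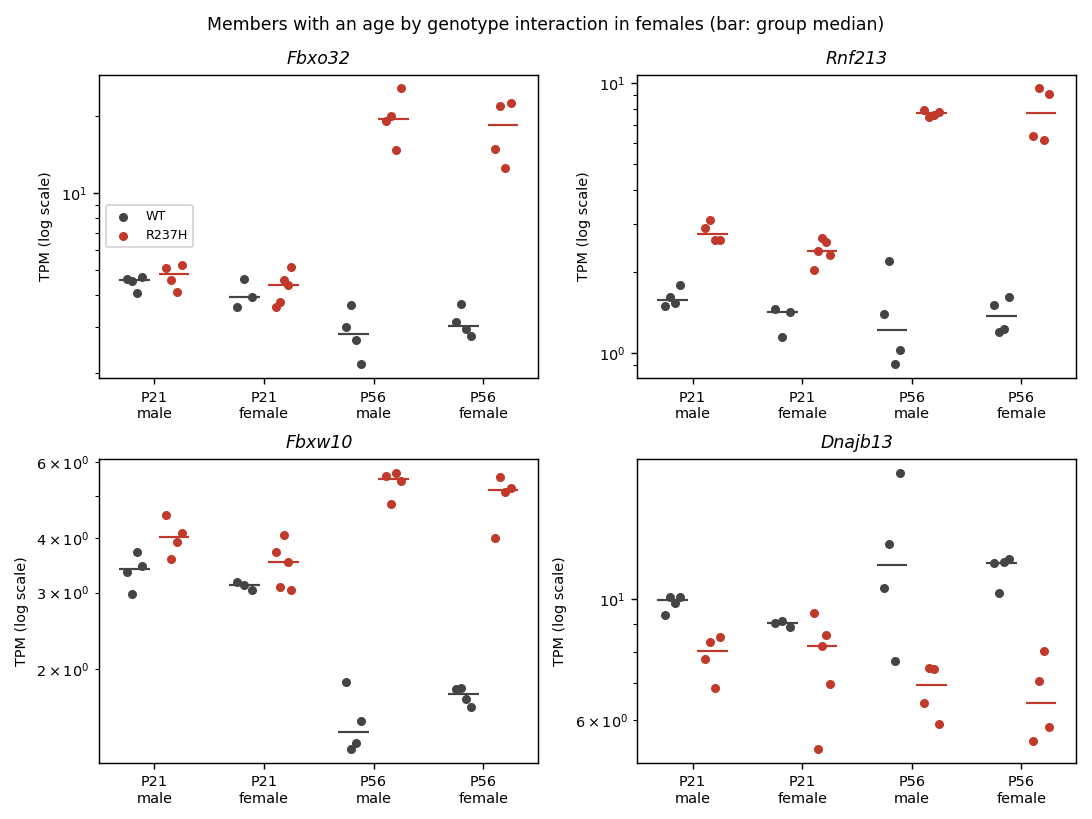
TPM (log axis) in each of the 32 rats for Fbxo32, Rnf213, Fbxw10 and Dnajb13, the 4 members whose genotype difference changed between P21 and P56 in females, with WT rats in grey, R237H rats in red and bars at the group medians. The P21 genotypes overlap for Fbxo32, at 3.6 to 5.23 TPM, while at P56 WT rats lie at 2.16 to 3.69 TPM and R237H rats at 12.4 to 25.5 TPM.

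Of the other RING finger and F-box members, Rnf217 was higher by 0.71 in P21 males, 0.66 in P21 females and 0.68 in P56 males (edgeR FDR 0.000432, 0.00356 and 0.000702) and by 0.39 in P56 females (FDR 0.024, or 0.00936 without R237H replicate 1). The P21 female call was lost without WT replicate 1 or 2 or R237H replicate 3 or 4 (FDR 0.0101 to 0.0297). Fbxo34 was lower in P56 males, P56 females and P21 males by -0.68, -0.36 and -0.26 (edgeR FDR 0.00041, 0.00871 and 0.00135), and the P56 female call was lost without any 1 of the 8 rats (FDR 0.0105 to 0.0284). Rnf227 was lower by -0.55 in P56 males (edgeR FDR 0.0014) and by -0.67 in P56 females, through which it was listed, with -0.15 and -0.16 at P21 in males and females, not called. Rnf180, a membrane-bound ligase, was not called in the 3 comparisons tested (-0.54 in P56 males, -0.30 in P56 females and -0.29 in P21 females), and was listed through P21 males (-0.35). Rnf152, a lysosomal ligase, was not called in the 3 tested (0.14, 0.22 and -0.19 in P56 males, P56 females and P21 males), and was listed through P21 females (-0.60). Ube2ql1, an E2-like protein, was lower by -0.81 in P56 females (edgeR FDR 0.00418), a call lost without WT replicate 2 or 3 or R237H replicate 2 (FDR 0.011 to 0.0155), and by -1.01 in P56 males, through which it was listed, with -0.12 and -0.16 at P21, not called. The 6 members lower in P56 females became 3 without the 5 rats with high Ttr, and 2 to 4 with any 1 rat left out.

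The ubiquitin-specific proteases, which remove ubiquitin, held 1 member with a large and even difference. Usp53, a family member located at cell junctions, was 12.3, 11.9, 12.6 and 12 TPM in P21 WT males and 57.7, 62.4, 49.1 and 48.2 TPM in R237H males. The levels at P56 were 11.2, 11.2, 8.78 and 7.08 TPM in WT males and 66.6, 71.7, 57.3 and 68.9 TPM in R237H males. In females it was 8.31 to 13.6 TPM in WT and 43.9 to 74.9 TPM in R237H rats over both ages. The R237H ranges of the 2 ages overlapped, and no R237H rat came near a WT rat. Usp53 had log2 fold changes of 2.16 in P21 males, 2.27 in P21 females, 2.40 in P56 males and 2.24 in P56 females (edgeR FDR 8.01e-09 to 1.31e-05), and the age interaction was 0.23 ± 0.17 in males and -0.032 ± 0.26 in females (FDR 0.347 and 0.961).

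The other proteases differed less. Usp2, known from the circadian clock, was lower in P56 males by -0.74 (edgeR FDR 0.000823) and not called in P56 females (-0.38) or P21 males (-0.25); it was listed through P21 females (-0.41). Usp22, the deubiquitinase of the SAGA chromatin complex, was lower in P56 females by -0.48 (edgeR FDR 0.00686), a call lost without WT replicate 1, 3 or 4 or R237H replicate 1, 2 or 4 (FDR 0.0123 to 0.0208). It was -0.39 in P56 males (FDR 0.0308, or 0.0021 without WT replicate 3), -0.33 in P21 females (FDR 0.038) and -0.29 in P21 males, through which it was listed. Usp54 was not called in the 3 tested (0.12, -0.089 and -0.21 in P56 males, P56 females and P21 males), though it passed in P21 males without R237H replicate 1 (FDR 0.00744), and was listed through P21 females (-0.45). The neuronal markers, 4 of 12 with a symbol, summed to 1083 to 1348 TPM in P56 WT males and 729 to 950.1 TPM in P56 R237H males, none at 0, and their part in the members lower at P56 was not tested.

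Whether members followed the mutated gene from rat to rat was examined among the 17 R237H rats alone, which does not use the genotype contrast. The log2 CPM (counts scaled to the size of the library) of Gfap and of each of the 11 members in all 4 lists were expressed as deviations from the mean of the rat's sex and age, and 11 relations were tested by permutation within the groups (two-sided, 100000 resamples). The 2 values of a rat come from 1 library and 1 dissection, and the part of the dissection in these relations was not tested. The relation to Gfap was not computed for other genes, so a relation that passed cannot be called particular to these members. Hspb1 had the largest Pearson r of the 11 in all 17 rats and Sqstm1 the largest Spearman rho. Hspb1 had r = 0.874 and rho = 0.841 (permutation p = 0.00012 and 0.00052, adjusted over the 11 relations 0.000623 and 0.00191). The r was 0.83 for Sqstm1, 0.821 for Hspb8, 0.701 for Cryab and 0.679 for Psme1, with rho of 0.875, 0.826, 0.755 and 0.728. Their permutation p for r were 0.00012, 0.00017, 0.00933 and 0.0008 (adjusted 0.000623, 0.000623, 0.0205 and 0.0022), and for rho 0.00012, 0.00026, 0.00486 and 0.00082 (adjusted 0.00132, 0.00143, 0.0107 and 0.00225).

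The other 6 did not pass for r, at 0.536 for Hspa2, 0.512 for Ube2l6, 0.505 for Bag3, 0.375 for Rnf213, 0.232 for Hspa9 and 0.043 for Usp53 (permutation p 0.0677, 0.0531, 0.0594, 0.139, 0.399 and 0.874, adjusted 0.093, 0.093, 0.093, 0.17, 0.44 and 0.87). Their rho were 0.571, 0.498, 0.451, 0.623, 0.211 and 0.11 (permutation p 0.042, 0.0629, 0.0982, 0.0133, 0.457 and 0.694, adjusted 0.066, 0.086, 0.12, 0.024, 0.5 and 0.69), so that Rnf213 passed for rho. Usp53 had the smallest r and rho of the 11. Without the 2 rats farthest from the Gfap median, r was 0.831 for Hspb1, 0.791 for Sqstm1, 0.835 for Hspb8, 0.762 for Cryab and 0.542 for Psme1. Within the 8 R237H rats of P56 it was 0.953, 0.728, 0.936, 0.911 and 0.851 in the same order, and within the 9 of P21 0.762, 0.952, 0.642, 0.261 and 0.787. Within P21 only Sqstm1 passed after adjustment (permutation p = 0.003, adjusted 0.0331), and Cryab stood at an adjusted permutation p of 0.622. Without the 2 R237H rats with high Ttr, the Cryab relation no longer passed (r = 0.577, adjusted permutation p = 0.107), while the other 4 did.

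**Figure D5:**
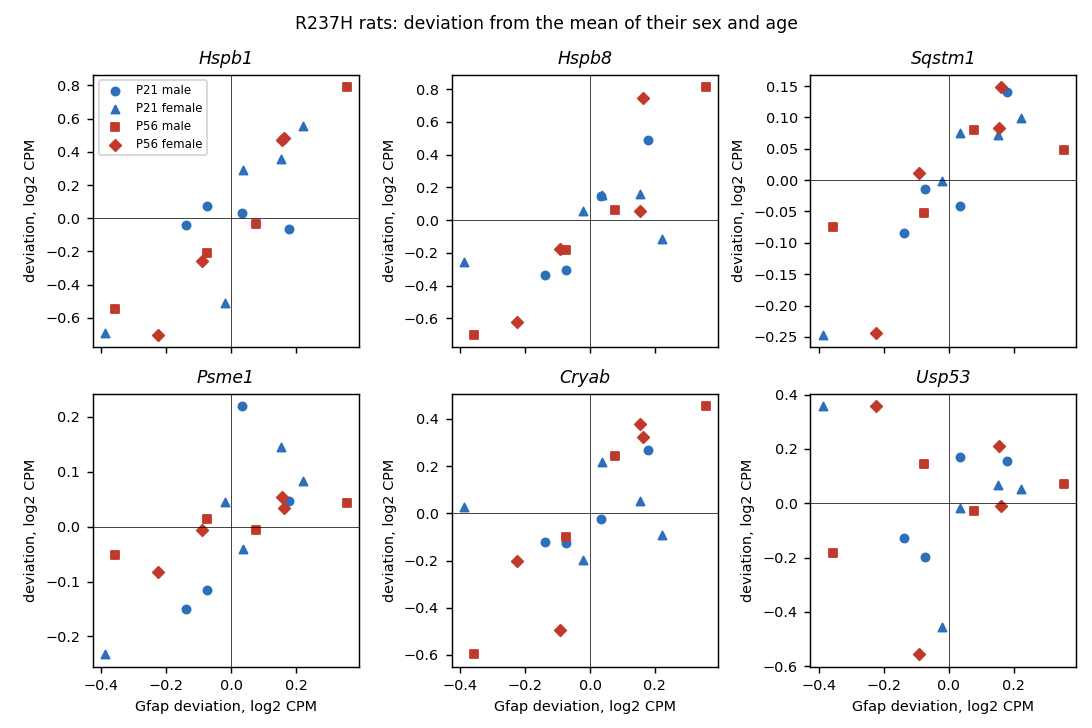
Deviation of 6 members (y axes) against the deviation of Gfap (x axis) from the mean of the rat's sex and age, in log2 CPM, for the 17 R237H rats, with P21 in blue, P56 in red and the marker's shape giving age and sex. The points rise from lower left to upper right for Hspb1 (r = 0.874) and Sqstm1 (r = 0.83) and show no slope for Usp53 (r = 0.043).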

How the data were processed

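Whole hippocampus of 32 rats was measured by poly(A) RNA sequencing with a strand-specific kit. Per its methods, the study used Skewer for trimming, STAR for alignment and RSEM for quantification, and the authors deposited expected counts and TPM (transcript levels scaled to library and gene length) for 23822 identifiers; the genome build is not given in the sources used here. The deposited expected counts, of which 5.68% were not whole, were rounded, and the deposited TPM were used as levels. Levels of different genes were compared on the TPM scale, which accounts for length. Groups followed the sample labels. Depth was 21580397 to 55544871 counts.

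Genotypes were compared within sex and age by edgeR 4.0.16 (R 4.3.3) after filterByExpr and TMM scaling, with the quasi-likelihood F-test and a Benjamini-Hochberg FDR over all genes, at 0.01. The standard error is the log2 fold change over the square root of F. Interactions used both ages or both sexes of 16 rats. Relations to Gfap used log2 CPM and 100000 permutations within groups with SciPy 1.17.1, with adjusted values under 0.05 as passing. The fits were checked on simulated counts. Identifiers were matched to symbols through the names in the study's lists of differentially expressed genes only (3289 of 23822); the fold changes and p-values in those lists were not used. Genes whose identifiers had no name there were not analysed here. Protein sequences were not used here. Promoters came from RefSeq, GRCr8.

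The members and gene lists were chosen with earlier results of these data known. Every member is named; levels by rat or their range are given for members in all 4 lists, the ISG15 enzymes and members with a log2 fold change of at least 2 in size in any comparison, and levels of Fbxw10, Dnajb13 and Isg15 were added after their values were seen. The alternatives tried were DESeq2 1.42.0, edgeR's likelihood-ratio test, other filters, RLE size factors, an FDR of 0.05, all 32 rats or both sexes in 1 model, a replicate block, log2(TPM + 0.1) with limma 3.58.1, and leaving out each rat. Leaving out the 5 rats with Ttr over 500 TPM, the relations within P21, and leaving out rats from the interactions were chosen after seeing the data. Nothing in the labels says that rats were processed apart, and p-values measure the spread between the rats of a group, and the labels do not say which rats of a group shared a litter.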

Additional observations from a re-analysis of the deposited data

Results flagged for a closer look

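Of 112 groups of 4 or 5 rats tested for a lone value, 3 were flagged because the highest rat stood far from the others, where chance flags about 1 in 20. Dnajc22 was 0.59 TPM in P56 male WT replicate 2 and 0.18 to 0.21 TPM in the other 3 WT males. Hspa2 was 25.43 TPM in P21 male R237H replicate 1 and 22.49 to 22.54 TPM in the other 3. Sqstm1 was 338.99 TPM in P56 female WT replicate 3 and 271.87 to 275.48 TPM in the other 3.

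The genotype difference changed between the ages by a test of the interaction for 4 members in each sex. In males the log2 differences were 2.2814 for Fbxo32, 1.3068 for Rnf213, 1.0517 for Fbxw10 and -0.6516 for Rnf112. In females they were 2.0521 for Fbxo32, 1.2995 for Rnf213, 0.9339 for Fbxw10 and -0.8925 for Dnajb13. Age and the day of collection cannot be told apart in these values.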

How the results depend on the processing

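Members called higher at P56 and in P21 males stayed within 1.5 times their number under every alternative run. Members called lower in P21 males, 3 in the report, were 6 at an FDR of 0.05, 5 with DESeq2, 1 with all 32 rats in one model and 6 with both sexes in one model. Those lower in P21 females, 0 in the report, were 1 at an FDR of 0.05, 1 with DESeq2 and 5 with both sexes in one model. Leaving out 1 rat gave 2 to 4 members lower in P56 females, where the report has 6, and leaving out the rats with high Ttr gave 3; it gave 8 to 15 higher in P21 females, where the report has 15. The male age interaction called 7 members with the likelihood-ratio test and 3 to 7 with 1 rat left out, and the female one 2 without the rats with high Ttr. The causes were not tested, beside the fewer rats in a fit that leaves some out.

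With a replicate block by the number in the sample title, 2 members were lower in P56 females and 7 higher in P21 females. Deviations of same-numbered rats correlated at 0.222, 0.073, -0.015 and -0.017 in P56 males, at 0.066 and 0.465 in P56 females, and at 0.024, 0.054 and 0.393 in P21 females. Because they were not above 0.1 throughout in any comparison, the rats were not taken as paired, though 0.465 and 0.393 were the highest between any WT and R237H rat of those 2 comparisons. No block could be fitted for P21 males, who share 1 number. Their p-values therefore measure the spread among rats of that number alone. The median coefficient of variation of a gene between rats was 8.94% in P21 males. It was 15.3% in P21 females, 17.3% in P56 males and 15.6% in P56 females. The smaller FDR values in P21 males are to be read beside this, and the part of the shared number was not tested.

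Uncalled values that turned direction on the TPM scale were Usp22 in P56 males (0.0195) and, in P56 females, Rnf180 (0.0163) and Usp54 (0.2214). With 1 rat left out, Usp54 in P56 females ran from -0.1694 to 0.0476, and in P56 males Dnajc25 from -0.0189 to 0.4425 and Rnf152 from -0.1318 to 0.4333.

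Among the relations to Gfap, log2(TPM + 0.1) gave r of 0.564 for Bag3, 0.628 for Hspa2 and 0.713 for Ube2l6, all then passing, and Rnf213 passed without the 2 farthest rats (0.612). Within P21, Hspb1 (0.762), Hspb8 (0.642), Psme1 (0.787) and Cryab (0.261) no longer passed, and Hspa9 (-0.008) and Usp53 (-0.122) turned sign; Cryab (0.577) did not pass without the R237H rats with high Ttr.

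Over all genes, the count of genes lower moved most between fits: 1106 to 3624 in P56 males, 474 to 3624 in P56 females, 180 to 1672 in P21 males and 28 to 1114 in P21 females, where the report's fits gave 1677, 1676, 721 and 114. Leaving out 1 rat gave 928 to 1989, 1006 to 1603, 337 to 890 and 36 to 185. Genes higher in P21 females ran from 396 to 2339 (621 to 1169 with 1 rat left out, and 1070 in the report's fit), and genes higher were 3812 in P56 males with both sexes in one model, for 2531, and 1441 in P56 females with the replicate block, for 2550.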
